A study of Mus musculus with 6 samples.

Results

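Mitochondrial import and respiratory assembly factors were compared between infarcted mouse hearts kept in mild cold and at room temperature. The genes were chosen by name: protein-coding rows for Timm, Tomm, Ndufaf, Coq, Uqcc, Sdhaf or Coa followed by a number, together with Cox10, Cox11, Cox14 to Cox20, Sco1, Sco2, Surf1 and Bcs1l. That gave 70 of the 55401 rows in the count table, 69 by the symbol itself and 1, listed as Apopt1, by its later symbol Coa8. All 6 libraries came from hearts of mice with myocardial infarction, in which muscle dies after its blood supply is cut off. Per the labels, 3 came from mice kept at 16 °C for 7 days (mild cold 1 to 3) and 3 from mice kept at 22 °C (room temperature 1 to 3). Strain, sex, age and time since infarction are not given in the labels, and no heart without an infarct was analysed here. Whether replicates are separate animals is not in the labels, and p-values then reflect only the spread among the libraries, which may be technical.

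Nearly all mitochondrial proteins are made in the cytosol. They cross the outer membrane through the TOM complex, are escorted by small TIM chaperones, and enter or cross the inner membrane through the TIM23 and TIM22 translocases. Assembly factors then help to build the respiratory complexes without being part of the finished enzyme, by inserting haem, copper, flavin and iron-sulfur clusters or holding half-made intermediates, while the COQ proteins make coenzyme Q, the lipid that carries electrons between complexes. Heart muscle cells are packed with mitochondria and depend on them for most of their energy.

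The 6 libraries held 41619023 to 65285901 counts. Cardiomyocyte markers were present in all of them, with 11 genes summing to between 28050 and 46720 CPM (counts scaled to library size by TMM, the trimmed mean of M-values). The library labelled room temperature 1 stood apart. It held 28312 counts of the atrial gene Myl7, 8688 of the brown fat gene Ucp1 and 32000 of the airway gene Scgb1a1, against at most 18, 2 and 102 in any other library. The atrial gene Sln was also nearly absent from those 5, at no more than 6 counts, although each is labelled as whole heart. Nppa and Dkk3, also on the atrial list, held 8911 to 53887 and 1424 to 10563 counts there. Results are therefore also given without room temperature 1. Mitochondrially encoded genes took 34.4%, 41.0% and 34.5% of the counts in mild cold and 26.2%, 31.6% and 27.3% at room temperature.

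Of the 70 genes, 66 had enough counts to be tested. Sco2, a copper chaperone for cytochrome c oxidase, had 0 counts in every library, Tomm6, a small TOM subunit, at most 4, Tomm20l, a paralogue of the receptor Tomm20, at most 4, and Timm8a2, a paralogue of Timm8a1, at most 1. Over 20% of the exon bases of 10 of the 70 genes, 8 of them tested, overlap another gene. They include Sco2 (91.8%), Cox20 (91.1%, opposite Hnrnpu), Tomm6 (84.2%), Sdhaf1 (69.6%), Ndufaf2 (65.6%), Tomm40l (64.3%), Cox16 (56.8%) and Cox11 (48.3%). How reads in such overlaps were counted is not given in the sources used here, so the levels of these genes are uncertain. Per kilobase of exon, Timm8b was the most abundant over both groups, with 125.6 CPM per kb in mild cold and 93.2 at room temperature, followed by Cox14 with 76.5 and 60.0 and Coq9 with 77.9 and 52.9.

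Promoter sequences of 61 of the 70 genes were found in a RefSeq table on the build GRCm38.p6, which spans 250 bases before to 50 bases after each gene's start. The 250 bases before the start are shown for Ndufaf1 and Timm23, which were among the 5 genes with the smallest adjusted p and hold a match to the ETS core bound by GABP, for Timm8b, the most abundant per kilobase, and for Uqcc2, which had the smallest p and holds no match to any of the 4 motifs searched. Capitals mark the matches. Each sequence reads 5′ to 3′ on the gene's own strand, with Ndufaf1 at chr2:119662835-119663084 (minus strand), Timm23 at chr14:32201892-32202141 (minus), Timm8b at chr9:50603651-50603900 (plus) and Uqcc2 at chr17:27133892-27134141 (minus).
Ndufaf1: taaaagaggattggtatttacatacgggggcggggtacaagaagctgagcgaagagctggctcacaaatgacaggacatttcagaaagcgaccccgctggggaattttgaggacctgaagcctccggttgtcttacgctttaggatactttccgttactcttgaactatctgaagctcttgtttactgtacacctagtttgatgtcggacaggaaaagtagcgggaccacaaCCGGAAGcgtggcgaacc
Timm23: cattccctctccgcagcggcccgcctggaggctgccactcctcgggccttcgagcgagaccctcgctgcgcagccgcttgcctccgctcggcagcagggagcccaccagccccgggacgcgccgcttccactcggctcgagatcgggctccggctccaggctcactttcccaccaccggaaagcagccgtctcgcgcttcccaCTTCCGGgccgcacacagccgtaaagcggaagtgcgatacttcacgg
Timm8b: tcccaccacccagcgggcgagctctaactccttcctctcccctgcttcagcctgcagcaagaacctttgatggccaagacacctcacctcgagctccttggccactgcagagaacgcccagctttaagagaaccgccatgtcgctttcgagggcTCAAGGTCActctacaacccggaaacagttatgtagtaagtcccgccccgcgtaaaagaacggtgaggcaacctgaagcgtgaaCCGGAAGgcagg
Uqcc2: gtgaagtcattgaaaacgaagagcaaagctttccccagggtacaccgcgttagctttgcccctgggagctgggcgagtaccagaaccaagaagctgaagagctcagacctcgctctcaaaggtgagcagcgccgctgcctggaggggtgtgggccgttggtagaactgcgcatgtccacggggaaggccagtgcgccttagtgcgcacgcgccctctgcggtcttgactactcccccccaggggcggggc

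Matches were counted by gene, and a gene with more than 1 promoter counted if any of them held the motif. The ETS core CCGGAAG, searched on both strands over the whole window, was in 25 of the 61 genes, 41.0%. That compares with 9.93% of all 27025 genes in the table and 12.9% of the 17492 protein-coding genes. In Ndufaf1 the ETS core began 18 bases before the start, in Timm8b 12, and in Timm23 47, where it lies on the opposite strand and a further match lies after the start. Before the start alone it was in 18 genes, 29.5%, against 7.83% of all genes and 10.2% of protein-coding genes. The NRF1 core GCGCATGCG was in 3 genes (Ndufaf4, Ndufaf5 and Timm13), 4.92% against 1.95% of all genes and 2.61% of protein-coding genes. Before the start alone it was in 2, 3.28% against 2.19% of protein-coding genes. The YY1 core AAGATGGCG was in 4 (Coq9, Cox10, Ndufaf8 and Timm50), each time after the start, 6.56% against 1.64% of all genes and 2.14% of protein-coding genes. The oestrogen-related receptor element TCAAGGTCA was in 1, Timm8b, where it began 96 bases before the start. That is 1.64% against 0.466% of all genes and 0.377% of protein-coding genes. None of these motifs overlapped another in the promoters shown, and a match describes these letters, not binding.

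The comparison asks how 7 days of mild cold change these transcripts in the infarcted heart. Most of them stood moderately higher in mild cold. Of the 66 tested genes, 61 had a log2 fold change above 0, against 47.7% of all 16757 genes tested, and 5 were below 0, against 52.3%. These were Coq8b, Cox19, Coq10b, Tomm34 and Cox17. The median was 0.35 (1.28-fold), against -0.02 over all genes. With library totals in place of TMM the median of all genes moved by -0.26, and 49 of the 66 were above 0. Relative to all genes the median of the 66 was then 0.38 higher, against 0.37 with TMM. Of the 66, 0 passed edgeR's quasi-likelihood test at an adjusted p of 0.05, against 0% of all genes, and the smallest adjusted p was 0.0878 for Uqcc2 among the 66 and 0.0813 among all genes. At an adjusted p under 0.1, 5 were higher (Uqcc2, Ndufaf7, Coq10a, Ndufaf1 and Timm23) against 1.01% of all genes, and 0 lower against 1.35%.

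At an unadjusted p under 0.05, 39 of the 66 were higher, against 9.11% of all genes, and 0 were lower, against 10.6%. That count was 25 without mild cold 1, without room temperature 1 or without room temperature 3. It was 13, with 1 lower, without the pair of deepest libraries (mild cold 1 and room temperature 3), and 4, with 3 lower, under library totals. Of these alternative fits, the share of all genes was counted only for that without room temperature 1, here and below. Without room temperature 1 the background was 6.8% of genes higher and 8.43% lower, and the median of the 66 was 0.30. The groups did not overlap for 39 genes higher in mild cold, against 12% of all genes, and for 2 lower (Coq8b and Cox19), against 13.1%. The DESeq2 Wald test, an alternative, called 19 higher at an adjusted p of 0.05 and 0 lower, against 3.91% and 4.53% of all genes, and without room temperature 1 it called 6. Limma-voom called 0.

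Summed over the 70 genes, the level was 3434, 3032 and 3110 CPM in mild cold 1 to 3 and 2379, 2775 and 2311 CPM at room temperature 1 to 3, a ratio of means of 1.28 (1.08 under library totals). Every mild cold library lay above every room temperature library. Mild cold 1 was the highest of the 6 for 37 of the 66 tested genes, and room temperature 1 or room temperature 3 was the lowest for 32 and 24. Room temperature 2 was the highest of its group for 46 and lay nearest to mild cold. Cell type markers also differed between the groups. Fibroblast markers summed to 2014, 3197 and 3287 CPM in mild cold 1 to 3 and to 3285, 4523 and 5247 at room temperature 1 to 3. All 9 of 9 genes were below 0 in log2 fold change, against 52.3% of all genes, with a median of -0.63 (-0.25 without the pair of deepest libraries). Cardiomyocyte markers summed to 46720, 39360 and 44420 CPM in mild cold 1 to 3 and 28050, 40120 and 28190 at room temperature 1 to 3. Mild cold 1 was the highest and room temperature 1 and 3 the lowest, with room temperature 2 above mild cold 2. None of these markers was at 0 counts. Of the cardiomyocyte markers, 11 of 11 were above 0, against 47.7% of all genes, with a median of 0.46 (0.22 without that pair). At an unadjusted p under 0.05, 3 of the 11 were higher, against 9.11% of all genes. The part of either in the result was not tested. In bulk samples, more cells of a type and more RNA per cell cannot be told apart.

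**Figure D1:**
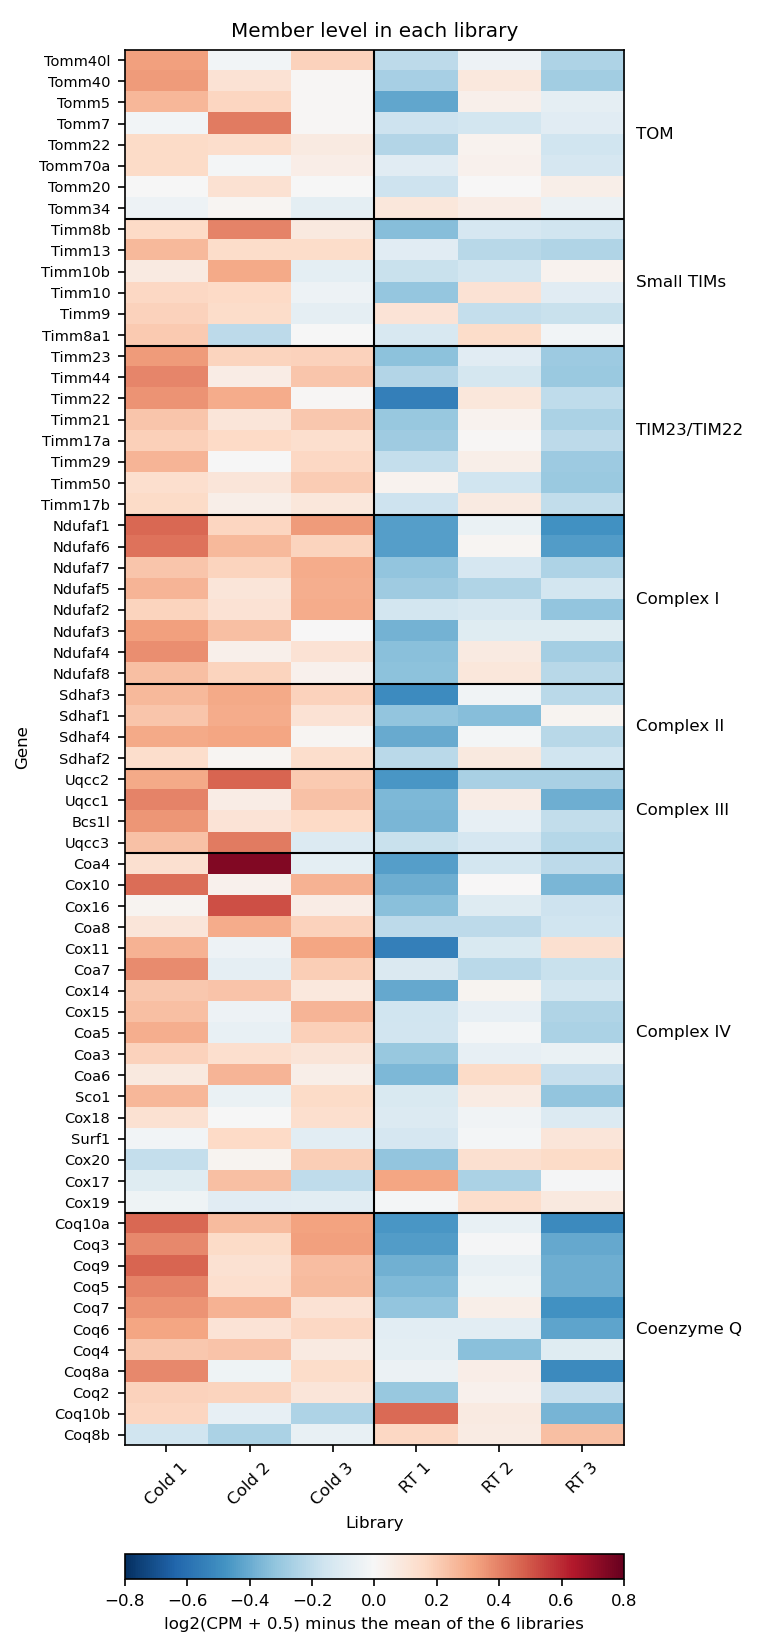
Level of each tested gene in each library, as log2(CPM + 0.5) minus the gene's mean over the 6 libraries (red higher, blue lower), grouped by role. The mild cold columns are mostly red and those of room temperature 1 and 3 mostly blue, with room temperature 2 between them.

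Relative to listed subunits of the respiratory enzymes, the factors stood lower in mild cold. The list of 75 nuclear-encoded subunits of oxidative phosphorylation was partial. It held Cox6a2, Cox7a1 and Cox8b but not Cox6a1, Cox8a or Ndufa4. Atp5pb was not found, and the row used for Atp5o held 0 counts. All 73 tested genes of the list were higher at an unadjusted p under 0.05 with TMM, against 9.11% of all genes. Their median log2 fold change was 0.50, with a range of 0.36 to 1.04. Under library totals 38 were, with a median of 0.25, and without the pair of deepest libraries 44 were. For each 100 CPM of those subunits, the import and assembly factors held 10.9, 9.68 and 10.6 CPM in mild cold 1 to 3 and 11.5, 11.3 and 11.9 CPM at room temperature 1 to 3 (10.4 ± 0.61 against 11.5 ± 0.28, SD, n = 3 per group). The groups did not overlap. This ratio is formed within a library and does not depend on scaling. For each 100 CPM of cardiomyocyte markers they held 7.35, 7.70 and 7.00 CPM in mild cold and 8.48, 6.92 and 8.20 CPM at room temperature (7.35 ± 0.35 against 7.87 ± 0.83). There the groups overlapped, and room temperature 2 was the lowest of all.

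**Figure D2:**
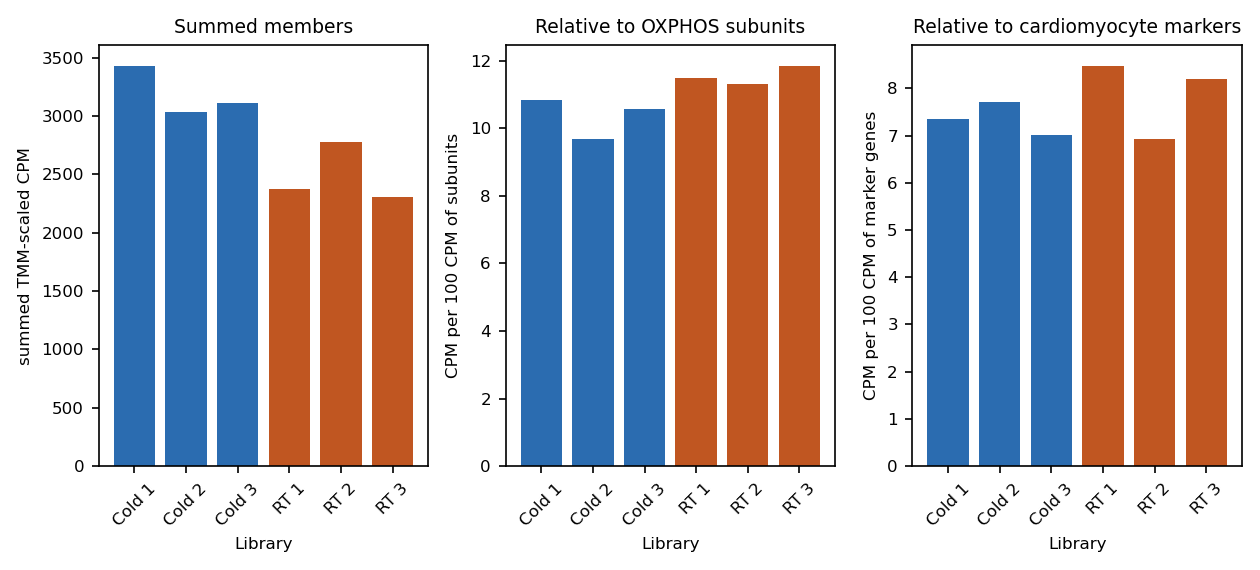
Summed level of the 70 genes in each library in TMM-scaled CPM (left), and the same per 100 CPM of the listed nuclear-encoded oxidative phosphorylation subunits (middle) and per 100 CPM of cardiomyocyte markers (right). The sum is higher in each mild cold library, from 3032 to 3434 against 2311 to 2775, while the ratio to the subunits is lower, from 9.68 to 10.9 against 11.3 to 11.9.

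The TOM genes of the outer membrane summed to 402.9 ± 15.8 CPM in mild cold and 354.1 ± 24.2 at room temperature. Of 8 tested, 2 were higher at an unadjusted p under 0.05, against 9.11% of all genes. Without room temperature 1 there were 0, against 6.8%. The median log2 fold change was 0.26 (0.00 under library totals). Tomm22, the central receptor, stood at 61.3, 60.8 and 58.0 CPM in mild cold and 46.8, 56.3 and 49.2 at room temperature, without overlap (log2 fold change 0.24 ± 0.09 SE, edgeR adjusted p = 0.223). The channel Tomm40 stood at 31.8, 27.1 and 25.2 against 20.7, 26.5 and 20.5 CPM, where room temperature 2 lay within the mild cold range (0.31 ± 0.14 SE). Its paralogue Tomm40l stood at 16.8, 13.1 and 15.2 against 11.4, 12.9 and 11.1 CPM, without overlap (0.35 ± 0.13 SE). The small subunit Tomm7 was at 42.4, 57.6 and 43.3 against 38.4, 38.9 and 40.5 CPM, also without overlap, with mild cold 2 far above the others (0.28 ± 0.13 SE, and 0.13 without mild cold 2). The receptors Tomm20 (log2 fold change 0.07) and Tomm70a (0.13) and the cytosolic cochaperone Tomm34 (-0.07) were the nearest to 0 of the TOM group.

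Of the small TIM chaperones, 2 of 6 tested were higher at an unadjusted p under 0.05, against 9.11% of all genes. Without room temperature 1 there were 2, against 6.8%. These chaperones summed to 138.3 ± 10.9 CPM in mild cold and 111.0 ± 5.96 at room temperature. They form hexamers that carry hydrophobic precursors between the membranes, one of Timm8 with Timm13 and another of Timm9 with Timm10. Timm8b stood at 62.4, 73.8 and 58.9 CPM in mild cold and 44.0, 50.8 and 50.04 at room temperature (0.43 ± 0.11 SE, edgeR adjusted p = 0.128), and Timm13 at 21.5, 19.8 and 19.8 against 16.7, 15.2 and 15.0 CPM (0.38 ± 0.09 SE, adjusted p = 0.12). Both were without overlap, and both passed DESeq2, at adjusted p = 0.0194 and 0.0285. Timm9, at 14.6, 14.3 and 12.2 against 13.9, 11.2 and 11.3 CPM (0.18 ± 0.13 SE), and Timm10, at 32.1, 32.0 and 27.7 against 23.0, 31.1 and 26.8 CPM (0.18 ± 0.13 SE), overlapped between the groups and turned to -0.08 and -0.06 under library totals. The other tested members, Timm8a1 (0.01) and Timm10b (0.235), also overlapped between the groups. The difference between the hexamers was not itself tested.

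Of the inner membrane translocases, 7 of 8 were higher at an unadjusted p under 0.05, against 9.11% of all genes. Without room temperature 1 there were 4, against 6.8%. The group summed to 479.6 ± 26.4 CPM in mild cold and 370.9 ± 35.7 at room temperature. Timm23, which forms the core of the presequence translocase, stood at 113.3, 101.4 and 101.7 CPM in mild cold and 71.2, 84.2 and 73.1 at room temperature (0.47 ± 0.10 SE, edgeR adjusted p = 0.0998, DESeq2 adjusted p = 0.00257). Every mild cold library was above every room temperature library. Timm44, which tethers the import motor to the channel, was at 81.9, 64.9 and 72.8 against 52.8, 56.4 and 50.6 CPM (0.46 ± 0.11 SE). Timm21, which contacts the TOM complex, was at 42.6, 39.0 and 42.4 against 29.6, 37.2 and 30.5 CPM (0.35 ± 0.11 SE), and Timm17a, the partner of Timm23, was at 130.5, 127.8 and 125.5 against 94.0, 115.1 and 98.9 CPM (0.32 ± 0.10 SE). None of these 3 overlapped between the groups. The receptor Timm50 (0.29) and the carrier translocase genes Timm22 (0.44) and Timm29 (0.29) made up the rest of the 7, and Timm17b (0.20) did not reach an unadjusted p of 0.05.

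Complex I assembly factors were higher in 7 of 8 cases at an unadjusted p under 0.05, against 9.11% of all genes. Without room temperature 1 there were 5, against 6.8%. They had a median log2 fold change of 0.43 in the full data, and summed to 241.6 ± 18.7 CPM in mild cold and 175.1 ± 21.9 at room temperature. Ndufaf1, of the early membrane-arm assembly complex, stood at 70.7, 57.7 and 65.1 CPM in mild cold and 37.6, 49.3 and 36.5 at room temperature (0.65 ± 0.14 SE, edgeR adjusted p = 0.0998). The groups were apart, with mild cold 2 and room temperature 2 the nearest. Ndufaf7, an arginine methyltransferase, was at 30.9, 30.0 and 32.6 against 21.1, 24.0 and 22.2 CPM (0.47 ± 0.09 SE, adjusted p = 0.0944), with a small spread in both groups. Ndufaf5, an arginine hydroxylase acting on Ndufs7, was at 16.4, 14.4 and 16.6 against 10.98, 11.3 and 12.1 CPM (0.46 ± 0.11 SE), and Ndufaf2, a late assembly chaperone, at 17.9, 17.2 and 19.5 against 14.2, 14.4 and 12.6 CPM (0.41 ± 0.10 SE). Ndufaf6 (0.60) and the early factors Ndufaf3 (0.40) and Ndufaf4 (0.35) were the other genes under 0.05. Ndufaf8, the partner of Ndufaf5, was at 0.31. DESeq2 called 5 of the 8 higher at an adjusted p of 0.05, against 3.91% of all genes.

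Of 4 complex II factors, 2 were higher at an unadjusted p under 0.05, against 9.11% of all genes. Without room temperature 1 there were 2, against 6.8%. The 4 summed to 91.1 ± 2.73 CPM in mild cold and 74.2 ± 8.72 at room temperature. Sdhaf3, which serves the iron-sulfur subunit Sdhb, was at 11.05, 11.4 and 10.5 CPM in mild cold and 6.30, 8.96 and 7.81 at room temperature (0.52 ± 0.15 SE, edgeR adjusted p = 0.151). Sdhaf1, which serves the same subunit, was low, at 2.54, 2.71 and 2.32 against 1.595, 1.56 and 2.15 CPM (0.51 ± 0.24 SE). Sdhaf4, which binds flavinylated Sdha, was at 24.0, 24.3 and 19.6 against 14.6, 19.2 and 16.6 CPM (0.43 ± 0.14 SE). These 3 did not overlap between the groups. Sdhaf2, needed for flavin attachment, was at 56.6, 51.7 and 56.6 against 44.1, 54.1 and 45.8 CPM (0.20 ± 0.10 SE), with room temperature 2 inside the mild cold range, and turned to -0.05 under library totals.

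All 4 complex III factors were higher at an unadjusted p under 0.05, against 9.11% of all genes. Without room temperature 1 there were 2, against 6.8%. The 4 summed to 253.5 ± 17.3 CPM in mild cold and 180.6 ± 24.1 at room temperature. Uqcc2 and Uqcc1 act together on newly made cytochrome b. Uqcc2 stood at 55.4, 62.2 and 52.0 CPM in mild cold and 32.3, 37.5 and 37.5 at room temperature (0.66 ± 0.11 SE, edgeR adjusted p = 0.0878), so the lowest mild cold library was well above the highest at room temperature. It passed at 0.0415 when no expression filter was used and at 2.61e-05 with DESeq2. Uqcc1 was at 173.7, 137.1 and 155.2 against 102.4, 137.4 and 100.4 CPM (0.45 ± 0.15 SE), where mild cold 2 lay just below room temperature 2. Bcs1l, the ATPase that inserts the Rieske protein, was at 22.0, 18.5 and 19.2 against 13.1, 16.3 and 14.8 CPM (0.43 ± 0.12 SE), and Uqcc3, which stabilises cytochrome b, at 22.4, 25.5 and 17.5 against 16.8, 17.3 and 16.2 CPM (0.38 ± 0.14 SE). Neither overlapped.

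**Figure D3:**
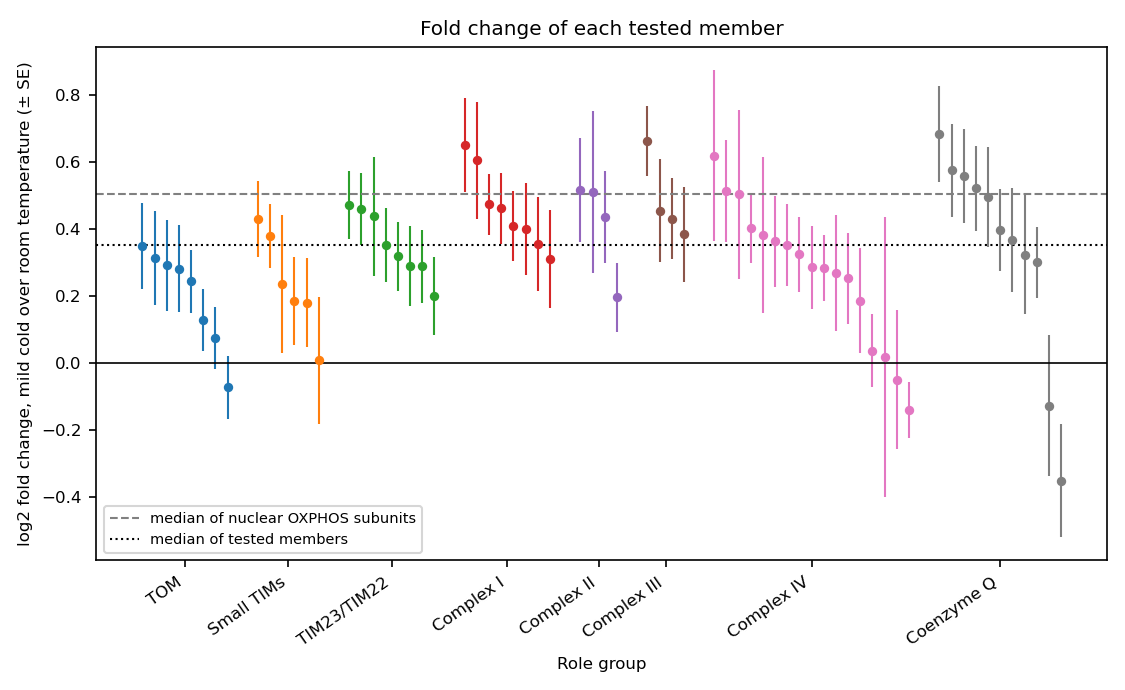
Log2 fold change (mild cold over room temperature, points, with the SE from edgeR as bars) of each tested gene by role. The dotted line is their median, 0.35, and the dashed line the median of the listed nuclear-encoded oxidative phosphorylation subunits, 0.50, and 5 points lie below 0.

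Of the complex IV factors, 15 of 17 tested had a log2 fold change above 0, against 47.7% of all genes, with a median of 0.28 (0.04 under library totals). At an unadjusted p under 0.05, 7 were higher, against 9.11% of all genes. Without room temperature 1 there were 4, against 6.8%. The complex IV factors summed to 505.6 ± 33.2 CPM in mild cold and 420.5 ± 29.5 at room temperature. Haem A is made in consecutive steps by Cox10 and Cox15. Cox10 was at 43.9, 32.8 and 38.9 CPM in mild cold and 24.3, 32.2 and 24.8 at room temperature (0.51 ± 0.15 SE, edgeR adjusted p = 0.151), and Cox15 at 38.3, 31.5 and 39.1 against 28.9, 30.9 and 27.3 CPM (0.32 ± 0.11 SE). In both, room temperature 2 came close to mild cold 2 without overlap.

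Coa3 and Cox14 bind the newly made core subunit Cox1. Coa3 was at 34.4, 33.3 and 32.5 CPM in mild cold and 24.4, 28.9 and 29.1 at room temperature (0.28 ± 0.10 SE), and Cox14 at 56.8, 57.3 and 51.8 against 36.6, 49.5 and 44.1 CPM (0.35 ± 0.12 SE). Coa8 was at 12.6, 14.5 and 13.4 against 10.1, 10.1 and 10.4 CPM (0.40 ± 0.10 SE, edgeR adjusted p = 0.123, DESeq2 adjusted p = 0.0309). None of the 3 overlapped. Coa7 (0.36) and Coa4 (0.62) were the other genes under 0.05, and for Coa4 the highest library, mild cold 2, stood well above the rest.

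Genes that deliver copper were mixed in sign. Cox19 was at 37.0, 35.5 and 35.6 CPM in mild cold and 37.4, 41.7 and 40.01 at room temperature (-0.14 ± 0.08 SE, edgeR adjusted p = 0.387). Cox17 was at 6.65, 8.53 and 6.13 against 9.02, 5.92 and 7.10 CPM (-0.05 ± 0.21 SE). Sco1 was at 24.0, 19.1 and 22.1 against 18.2, 20.8 and 15.9 CPM (0.25 ± 0.14 SE) and Cox11 at 6.22, 4.91 and 6.40 against 3.30, 4.601 and 5.56 CPM (0.38 ± 0.23 SE). Only Cox19 of these 4 was without overlap, lower in mild cold by less than 1 CPM between its nearest libraries, and none was under 0.05. Surf1, involved in haem insertion, was at 21.4, 24.3 and 20.5 against 19.8, 21.5 and 23.2 CPM (0.04 ± 0.11 SE). The remaining Coa5, Coa6, Cox16, Cox18 and Cox20 had log2 fold changes of 0.28, 0.27, 0.50, 0.19 and 0.02, and Cox20 was below 1 CPM in every library.

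Coenzyme Q genes gave both ends of the range. Of 11 tested, 8 were higher at an unadjusted p under 0.05, against 9.11% of all genes. Without room temperature 1 there were 6, against 6.8%. The 11 had a median of 0.40 in the full data, and summed to 1079 ± 112.2 CPM in mild cold and 802.1 ± 117.9 at room temperature. Coq10a, a coenzyme Q binding protein, had the highest log2 fold change of the 66. It stood at 167.6, 145.3 and 152.2 CPM in mild cold and 87.8, 116.8 and 85.4 at room temperature (0.68 ± 0.14 SE, edgeR adjusted p = 0.0976), without overlap. The methyltransferases Coq3, at 55.9, 47.5 and 53.7 against 31.2, 42.4 and 32.0 CPM (0.57 ± 0.14 SE), and Coq5, at 107.5, 89.4 and 96.9 against 63.7, 79.4 and 61.9 CPM (0.52 ± 0.13 SE), were also apart. So was Coq9, a lipid-binding partner of the hydroxylase Coq7, at 269.9, 212.3 and 231.4 against 149.2, 187.2 and 148.8 CPM (0.56 ± 0.14 SE, adjusted p = 0.12). The hydroxylases Coq7 (0.49) and Coq6 (0.40), the prenyltransferase Coq2 (0.30) and Coq4 (0.37) were the others under 0.05.

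Coq8b had the lowest log2 fold change of the 66. It stood at 3.82, 3.54 and 4.14 CPM in mild cold and 4.91, 4.55 and 5.19 at room temperature (-0.35 ± 0.17 SE, edgeR adjusted p = 0.297), without overlap. Coq8a, the more abundant of the 2 atypical kinase-like proteins of this pathway, stood at 376.3, 281.9 and 319.9 against 279.4, 300.0 and 203.0 CPM (0.32 ± 0.18 SE), with room temperature 2 above mild cold 2. Coq10b was at 58.6, 49.7 and 43.7 against 71.5, 54.7 and 40.1 CPM (-0.13 ± 0.21 SE), with room temperature 1 the highest and room temperature 3 the lowest, and turned to 0.10 without room temperature 1.

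**Figure D4:**
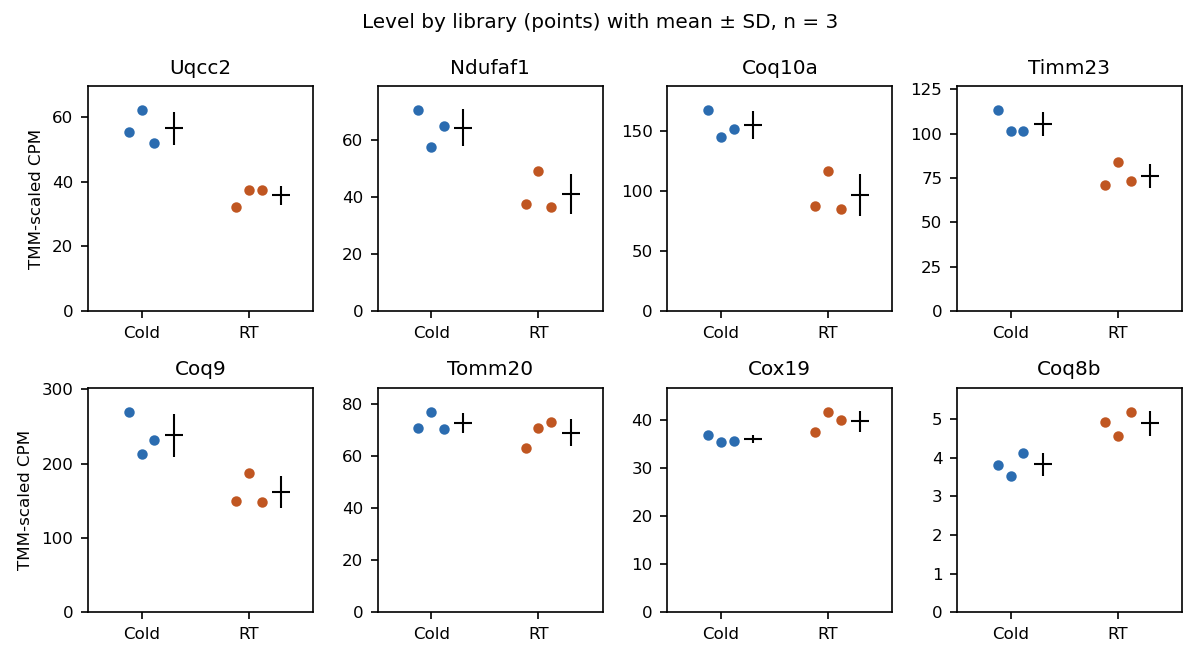
TMM-scaled CPM of 8 genes in each library (points) with the mean and SD of each group (n = 3, horizontal tick and bar), each axis starting at 0. Uqcc2, Ndufaf1, Coq10a, Timm23 and Coq9 lie higher in every mild cold library, Tomm20 overlaps, and Cox19 and Coq8b lie lower.

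The table holds paralogue pairs, which were compared as ratios within each library. For 6 pairs with both genes tested, log2 ratios (with 0.5 CPM added) were compared by an exact 2-sided permutation test, which cannot give a p below 0.1 with 3 against 3 libraries. Coq8a over Coq8b was 6.45, 6.13 and 6.11 in mild cold and 5.69, 5.89 and 5.16 at room temperature, a difference of 0.65 (exact p = 0.1, adjusted over the 6 pairs p = 0.15). Coq10a over Coq10b was 1.51, 1.54 and 1.79 against 0.30, 1.09 and 1.08, a difference of 0.79 (exact p = 0.1, adjusted p = 0.15), with room temperature 1 the lowest by far. In both pairs every mild cold ratio was the higher.

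Timm8a1 over Timm8b was -3.33, -3.99 and -3.45 in mild cold and -3.16, -3.09 and -3.24 at room temperature, a difference of -0.42 (exact p = 0.1, adjusted p = 0.15), which was -0.22 without mild cold 2. Timm8a1 itself stood at 5.77, 4.18 and 4.92 against 4.47, 5.51 and 4.84 CPM (log2 fold change 0.01 ± 0.19 SE), and its groups overlapped. Timm17a over Timm17b was 3.27, 3.35 and 3.28 against 3.11, 3.17 and 3.22, a difference of 0.13 (exact p = 0.1, adjusted p = 0.15), with Timm17b at 13.1, 12.1 and 12.5 against 10.4, 12.3 and 10.2 CPM. Timm10 over Timm10b differed by -0.01 (exact p = 0.8, adjusted p = 0.96) and Tomm40 over Tomm40l by -0.02 (exact p = 1, adjusted p = 1), and their groups overlapped. Timm10b was low, at 3.495, 4.18 and 3.10 against 2.85, 2.92 and 3.37 CPM.

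**Figure D5:**
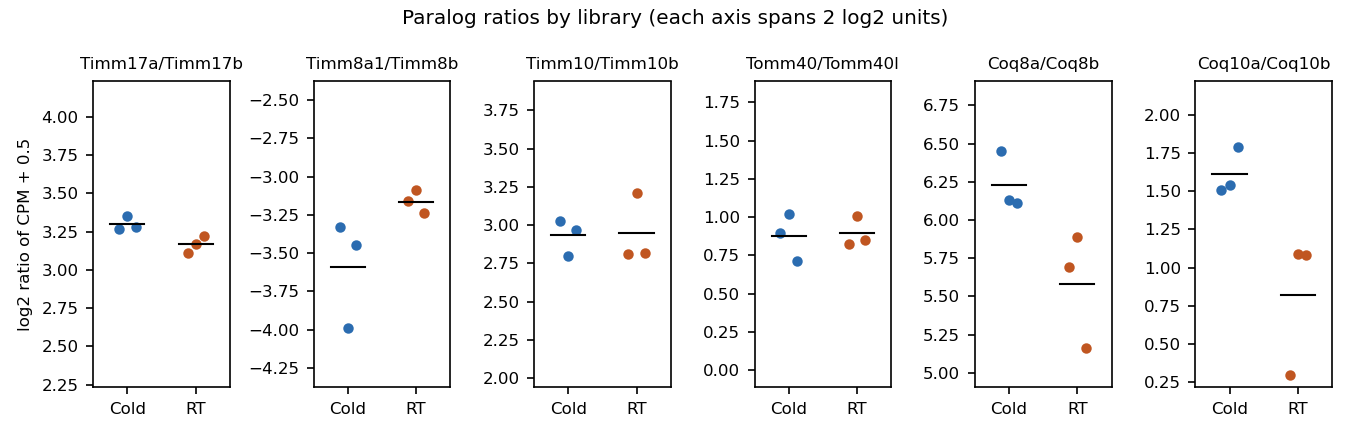
Log2 ratio of the CPM (with 0.5 added) of 6 paralogue pairs in each library (points) with group means (lines), each axis spanning 2 log2 units. The ratios of Coq8a to Coq8b, Coq10a to Coq10b and Timm17a to Timm17b are higher in every mild cold library, that of Timm8a1 to Timm8b is lower, and the others overlap.

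Further genes of the same pathways, outside the naming rule, were counted in the same way. Of 27 other genes of import, processing and folding, 12 were higher at an unadjusted p under 0.05 and 0 lower, against 9.11% and 10.6% of all genes, with a median log2 fold change of 0.25 (0.00 under library totals). Under library totals 1 was higher and 2 lower, and without the pair of deepest libraries 2 were higher and 0 lower. Chchd10, an intermembrane space protein mutated in motor neuron and muscle disease in humans, was at 80.7, 74.9 and 66.4 CPM in mild cold and 47.1, 52.4 and 46.4 at room temperature (0.61 ± 0.10 SE, edgeR adjusted p = 0.0878). The motor chaperone Hspa9 was at 0.38 and the matrix chaperonin Hspd1 at 0.22, while Gfer, the oxidase of the intermembrane space disulfide relay, was at -0.01 and Mtx3 at -0.12. Of 26 other respiratory assembly genes tested, 18 were higher at an unadjusted p under 0.05, against 9.11% of all genes, with a median of 0.39 (0.15 under library totals). That count was 4 under library totals and 6 without the pair of deepest libraries. Under an edgeR adjusted p of 0.1, 4 were higher, against 1.01% of all genes: Higd1a (0.73), Tmem177 (0.69), Cmc2 (0.63) and Pet100 (0.62). Higd1a, a hypoxia-inducible protein that associates with complexes III and IV, was at 110.6, 113.8 and 102.1 against 56.4, 74.5 and 65.3 CPM (edgeR adjusted p = 0.0878), with every mild cold library above every room temperature library.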

How the data were processed

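RNA-seq was made from total RNA taken from heart tissue with TRIzol and enriched for mRNA, per the labels' protocols. The authors deposited raw counts per gene for 6 libraries, counted with featureCounts 2.0.3 on GRCm39 per the submitters' processing notes. Not given in the sources used here are the aligner, annotation release, strand setting and treatment of read pairs. Even numbers made up 71.9% to 78.3% of counts from 1 to 10, so a count may not be an independent fragment. Symbols came from GENCODE M21 for 55141 of 55401 rows. The 260 others held at most 0.0021% of a library. No pair of libraries held identical counts.

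The test was edgeR 4.0.16 under R 4.3.3 (quasi-likelihood, 2-sided, expression filter by group, TMM, Benjamini-Hochberg adjustment over 16757 genes). Group values are mean ± SD (n = 3) and log2 fold changes (cold over room) carry ± SE. DESeq2 1.42.0, limma 3.58.1 (voom), other scalings, filters and offsets, a replicate block and left-out libraries were alternatives. The test was fitted on the whole table. The genes and lists were chosen with earlier results of these data known. Values per library are given for the 4 genes of each role with the smallest p, paralogues, the 3 highest and lowest fold changes and the 3 most abundant per kb. Values of other genes were chosen after they were seen. Gene lengths and overlaps come from M21 on GRCm38, and promoters from RefSeq, an earlier build than the counts, so its positions are given for the sequences alone.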

Additional observations from a re-analysis of the deposited data

How the results depend on the processing

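Over all genes edgeR called 0 at an adjusted p of 0.05, and the count was 356 under library totals, 184 with no expression filter, 1414 with the DESeq2 Wald test, 944 with DESeq2 without room temperature 1 (chosen after seeing the data), 396 at an adjusted p of 0.1 and 0 to 2 with each library left out. Among the import and assembly genes it was 0, against 1 with no filter, 19 with DESeq2, 6 with DESeq2 without room temperature 1 and 5 at 0.1. The 39 genes higher at an unadjusted p under 0.05 became 4 under library totals, 13 without the 2 deepest libraries and 25 to 44 with each library left out. The 0 lower became 3 under library totals and 1 without the 2 deepest libraries. By role, library totals left 1 higher in complex I, 1 in complex III and 2 in coenzyme Q synthesis, and the fit without the 2 deepest libraries left 2 in the small TIM, 2 in the inner membrane, 4 in the complex I, 1 in the complex III, 1 in the complex IV and 3 in the coenzyme Q group. The median of 0.35 became 0.10 under library totals and 0.30 to 0.43 with each library left out, and the 1.28-fold sum became 1.08-fold under library totals. The labels do not say whether the replicate numbers pair the samples. Same-number correlations were 0.0971, -0.173 and -0.0867, within the -0.38 to 0.388 of different numbers, and 3 libraries per group cannot settle it. A replicate block called 1 gene of all, 0 of these, and 32 at an unadjusted p under 0.05; with length and GC offsets it called 1, 0 and 29.

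For the 40 named genes, 758 of 800 values under alternatives kept direction and side of the threshold, 24 newly passed it and 18 changed sign. Under library totals the changed ones were Sdhaf2 (-0.050), Timm10 (-0.065), Timm10b (-0.030), Timm17b (-0.049), Timm8a1 (-0.24), Timm9 (-0.083) and Tomm22 (-0.0075). Coq10b ran from -0.32 to 0.10 with each library left out and was 0.11 with DESeq2 without room temperature 1. Timm8a1, at 0.01, became -6.1e-05 under upper-quartile scaling, -0.0028 at a minimum of 1 CPM, -0.081 with length and GC offsets, -0.095 with these and the block, -0.12 to 0.12 with each library left out, -0.13 without the 2 deepest and -0.046 with DESeq2 without room temperature 1. The Timm10 over Timm10b difference became 0.0068 with a pseudocount of 1 and ran from -0.080 to 0.12 with each library left out, and Tomm40 over Tomm40l ran from -0.093 to 0.061. Other values that moved by over 1.5 times with a library left out were Coq8a (0.17 to 0.45), Cox19 (-0.18 to -0.089), Sdhaf2 (0.14 to 0.30), Timm10 (0.081 to 0.31), Timm10b (0.11 to 0.33), Timm17b (0.14 to 0.30) and Timm9 (0.13 to 0.29). Before the start, 0 promoters held the YY1 core. With 3 libraries per group, no paralogue test could pass 0.05.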

Other observations

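Marker lists of other cell types differed between libraries. White fat markers summed to 0.16 to 102.6 CPM in mild cold and 107.0 to 949.9 at room temperature, and lymphocyte markers to 1.72 to 2.44 and 4.72 to 7.81, without overlap. Brown fat markers summed to 33.5 to 39.2 CPM against 54.1 to 405.6, and atrial markers to 168.9 to 410.4 against 721.0 to 5340, where room temperature 1 was the highest. In room temperature 2 and 3, only Dio2 of the brown fat list stood above mild cold, at 45.2 and 39.9 against 13.85, 19.8 and 16.5 CPM. Cidea was lower there, at 15.9 and 14.2 against 19.0, 19.3 and 18.6 CPM, and Ucp1 was at 0. Neutrophil markers were low and summed higher in mild cold, at 4.81, 12.01 and 1.46 CPM in mild cold 1 to 3 against 0.64 to 0.98. In mild cold 3, S100a9 lay within the room temperature range and Retnlg held 0 counts. Smooth muscle and pericyte markers went both ways. Of 6, 4 (Myh11, Acta2, Tagln and Cnn1) were lower without overlap, against 13.1% of all genes, and 2 were higher without overlap, against 12%. Tagln was below 1 CPM in every library. The median log2 fold change was -0.53. The list's sum was higher, at 1428 to 1522 against 1233 to 1290 CPM, with the pericyte gene Rgs5 at 1227 against 912.8 CPM on average. Endothelial (1710 to 2387 against 1585 to 2280 CPM), macrophage (536.1 to 723.0 against 557.1 to 950.3) and red blood cell markers (819.4 to 1029 against 391.7 to 924.0) overlapped. So did the sums of skeletal muscle (1302 to 1366 against 892.2 to 1688), liver (7.75 to 366.7 against 93.4 to 522.1), lung (0.11 to 1.80 against 0.07 to 685.0) and Schwann cell markers (5.95 to 7.80 against 7.33 to 41.6). Yet 5 of 6 tested skeletal muscle genes were below 0, against 52.3% of all genes, with a median log2 fold change of -3.04. Myh4 held 1638 counts in room temperature 3 and at most 16 in any other library. Of the liver genes, 6 of 7 were above 0, against 47.7% of all genes, with a median of 3.49, while Cyp2e1 was at -2.76. Alb stood at 117.8, 3.43 and 188.2 CPM in mild cold and 6.76, 21.1 and 0.14 at room temperature. The part of these in the results was not tested.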
